A study of Homo sapiens with 6 samples.

Results

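The histone genes of the count table were taken by their symbols: all names of the H1, H2AC, H2BC, H3C and H4C series, and H2AX, H2AZ1, H2AZ2, H2AJ, MACROH2A1, MACROH2A2, H3-3A and H3-3B. The centromeric variant CENPA was left out by the same rule. This gave 71 of 23382 gene names. Of these, 61 are replication-dependent genes (6 for H1, 15 for H2A, 16 for H2B, 12 for H3 and 12 for H4), and 10 are replacement or variant genes (2 for H1, 6 for H2A and 2 for H3).

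RNA was sequenced from UM-UC-3, an established human bladder cancer cell line. The 6 libraries formed 2 groups, 3 labelled negative control and 3 labelled si-CPSF3, which the series design describes as downregulation of CPSF3. CPSF3 is the endonuclease that cuts the 3′ end of both polyadenylated and replication-dependent histone pre-mRNAs. The labels give no siRNA sequence, dose or time after transfection, and do not say whether the libraries came from separate cultures, and each p-value therefore measures the spread between libraries, which may be technical.

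Nucleosomes wrap DNA around H2A, H2B, H3 and H4, and H1 binds the linker DNA between them. Replication-dependent histone genes are multicopy, clustered and mostly intronless, and are expressed in S phase to package new DNA. Their mRNAs normally end in a stem-loop bound by SLBP in place of a poly(A) tail. Replacement histones are expressed through the cell cycle from mostly intron-containing, polyadenylated genes.

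Total counts lay between 4145385 and 4378899 per library, of which histone genes took 0.245% to 0.321%. CPSF3 itself was not lower in the group labelled si-CPSF3, with counts of 56, 38 and 66 against 20, 50 and 36 in the controls (log2 fold change 0.67, edgeR adjusted p = 0.329). The label is therefore used only as a name, and every difference is given as the group labelled si-CPSF3 relative to control. The epithelial keratins KRT8 and KRT18 and the intermediate filament gene VIM had between 276 and 1320 counts in every library. Of 7 marker genes of blood and endothelial cells, the table lists PECAM1, with 1 count over all libraries, and HBA1, with 6.

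The stem-loops found in annotated transcripts of tested genes are shown first, because the histone-specific 3′ end is cut just after this element. For 7 tested replication-dependent genes, H2BC12 among them, the annotated transcripts stop at the coding sequence, and H2AC18 matched no transcript. The transcripts of H1-4 and H4C3 are not limited to the coding sequence, and the exact pattern searched was not found in them. Absence of a gene here does not mean that it lacks a stem-loop. Capitals mark the stem-loop of 16 bases (6 pairs and a loop of 4 bases), lower case the 5 bases on either side, read on the gene's own strand from GENCODE 29 transcripts (GRCh38).
H2BC5: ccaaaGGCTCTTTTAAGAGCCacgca
H2AC8: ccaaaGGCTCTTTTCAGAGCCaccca
H4C5: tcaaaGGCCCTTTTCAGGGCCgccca
H4C15: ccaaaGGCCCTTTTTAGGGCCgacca
H2AX: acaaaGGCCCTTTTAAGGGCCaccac
The capitals lie at chr6:26158587-26158602 (+) for H2BC5, chr6:26217417-26217432 (+) for H2AC8, chr6:26205001-26205016 (+) for H4C5, chr1:149860769-149860784 (−) for H4C15 and chr11:119094898-119094913 (−) for H2AX.

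The pattern searched was GGNNNNTTTNNNNNCC with a fully paired stem, on the transcript strand. Of 19684 protein-coding genes in GENCODE 29, 57 (0.29%) held it. Histone genes matched to this annotation numbered 68. A stem-loop was found in 26 of 58 replication-dependent genes, but 26 of the 58 have annotated transcripts that stop at the coding sequence and so cannot show one. Of the other 32, 26 held it. Among the 10 replacement genes it was found in H2AX, which is known to give both a stem-loop and a polyadenylated mRNA. The most frequent of 5 sequences, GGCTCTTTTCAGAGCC, occurred in 15 genes. In 21 replication-dependent genes an annotated transcript ran at least 100 bases past the stem-loop, the form a polyadenylated histone mRNA has. H2BC5 has 2 annotated transcripts, 1 of them spliced, and 1 of the 2 carries the stem-loop. The H4C3 transcript holds no such stem-loop, and 18 of its last 20 bases are A, against 2 to 15 in 22 other tested histone genes. Each value is the highest over the annotated transcripts of a gene. For 7 of the 22 genes these transcripts end at the coding sequence, so their last bases are not an mRNA 3′ end.

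Counts were tested in 24 of the 71 genes: 14 replication-dependent and all 10 replacement genes passed the filter on low counts. A pair of H2B genes of the chromosome 6 histone cluster rose, and no tested histone gene passed the threshold as lower. These were H2BC5, with a 2.95-fold change, and H2BC12, with a 1.83-fold change. Of all 11069 genes tested, 0.723% were higher and 1.51% lower at an adjusted p under 0.05. The median log2 fold change was 0.52 for the 14 replication-dependent genes, with 11 above 0 and 3 below, and 0.11 for the 10 replacement genes, with 6 above and 4 below. Over all genes tested the median was -0.01 and 49.2% lay above 0. At an unadjusted p under 0.05, 7 replication-dependent genes were higher and 1 lower, and 1 replacement gene was lower. Of all genes tested, 7.05% were higher and 8.33% lower at that level. These counts describe only the genes abundant enough to be tested.

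**Figure D1:**
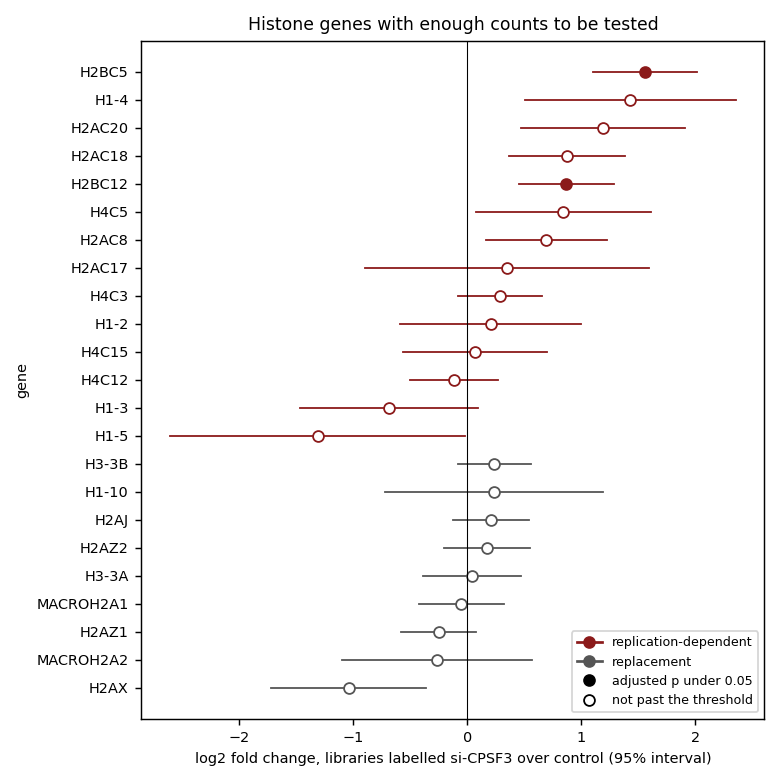
Log2 fold change (x axis) of the 23 tested histone genes shown (y axis), libraries labelled si-CPSF3 over control, with 95% intervals from the edgeR fit, n = 3 libraries per group; filled points passed an adjusted p under 0.05. The 14 replication-dependent genes run from -1.31 for H1-5 to 1.56 for H2BC5, and the 9 replacement genes shown from -1.04 for H2AX to 0.24 for H3-3B.

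H2BC5 encodes a core H2B protein and lies at chr6:26158121-26171349 on GRCh38.p14. Control replicates 1 to 3 had 53, 45 and 43 counts, and those labelled si-CPSF3 had 148, 119 and 126. As CPM (counts relative to the library total, corrected for library composition) the values were 11.97, 9.38 and 11.2 against 39.7, 27.8 and 28.6. Every library labelled si-CPSF3 lay above every control library. The level rose from 10.8 ± 1.33 to 32.0 ± 6.69 CPM (SD, n = 3), a log2 fold change of 1.56 (SE 0.22, edgeR adjusted p = 0.00142), and the gene passed whichever of the 6 libraries was left out. The call was lost on log2(FPKM + 0.1), at 1.60. Its RefSeq span overlaps H2BC6-AS1 and the pseudogene LARP1P1, and the counting is not stated to use strand, so reads of the 3 cannot be told apart.

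H2BC12, a second H2B gene, lies at chr6:27138293-27146858. Control libraries had 141, 106 and 128 counts against 241, 189 and 222, or 31.9, 22.1 and 33.3 CPM against 64.7, 44.1 and 50.3 CPM. Again the groups did not overlap. The level rose from 29.1 ± 6.10 to 53.1 ± 10.6 CPM (SD, n = 3; log2 fold change 0.87, SE 0.20, edgeR adjusted p = 0.0312). The call was lost without control replicate 1, control replicate 2, siCPSF3 replicate 1 or siCPSF3 replicate 3, where the log2 fold change lay between 0.70 and 0.94, and with library totals (0.77) or the FPKM values (0.69 and 0.70). H4C9 lies within its span, with at most 4 counts in any library. The H2B genes are near-identical copies of one another, so how the authors' counting split reads between them is uncertain for each single gene.

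The promoters of the 2 genes that rose are shown as the 120 bases before the annotated start, on the gene's strand, from the RefSeq table of GRCh38.p14. Capitals mark the TATAAA element, the CCAAT box, which reads ATTGG where it lies on the other strand, and the octamer ATTTGCAT, an element of H2B promoters bound by Oct-1.
H2BC5: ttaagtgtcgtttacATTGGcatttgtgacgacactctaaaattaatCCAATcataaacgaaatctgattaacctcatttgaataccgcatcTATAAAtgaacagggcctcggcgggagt
H2BC12: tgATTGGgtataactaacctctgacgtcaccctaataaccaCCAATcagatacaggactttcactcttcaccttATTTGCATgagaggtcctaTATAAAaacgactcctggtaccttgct
They span chr6:26158001-26158120 (+) for H2BC5 and chr6:27146859-27146978 (−) for H2BC12. Both hold TATAAA and 2 CCAAT boxes, and the exact octamer is in H2BC12 only. Promoters were found for 66 of the 71 histone genes and were searched on both strands over 300 bases. The octamer was in 75.0% of the 16 H2B and 71.4% of the 14 H2A replication-dependent promoters, in 9.09% of the 11 H3 promoters and in none of the 6 H1 or 10 H4 promoters. Over the 57 replication-dependent promoters it was in 40.4%, against 11.1% of the 9 replacement promoters and 1.8% of all 27305. TATAAA was in 63.2% of the 57 replication-dependent, 44.4% of the replacement and 3264 of the 27305 promoters. The CCAAT box was in 86.0% and 66.7% of the same classes and in 35.7% of all promoters. The matches shown do not overlap each other.

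The tested H2A genes of the replication-dependent class were H2AC8, H2AC17, H2AC18 and H2AC20, and none passed. H2AC18 had 11.1, 12.3 and 15.1 CPM in the control libraries and 29.5, 24.1 and 17.0 CPM in the others (log2 fold change 0.87, SE 0.24, adjusted p = 0.0712). H2AC20 had 7.46, 11.3 and 10.4 CPM against 27.4, 29.7 and 9.75 CPM (1.19, SE 0.34, adjusted p = 0.0829). H2AC8 had 8.13, 7.50 and 6.25 CPM against 12.4, 11.2 and 12.02 CPM (0.69, SE 0.25, adjusted p = 0.181). The groups did not overlap for H2AC18 and H2AC8, while H2AC20 in siCPSF3 replicate 3 lay within the control range. Without that library H2AC18 and H2AC20 passed, at log2 fold changes of 1.07 and 1.56. H2AC17 ranged from 6.25 to 11.5 CPM in the control libraries and stood at 6.18, 25.0 and 1.59 CPM in siCPSF3 replicates 1, 2 and 3. Its log2 fold change of 0.35 (adjusted p = 0.841) turned to -1.16 without siCPSF3 replicate 2.

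**Figure D2:**
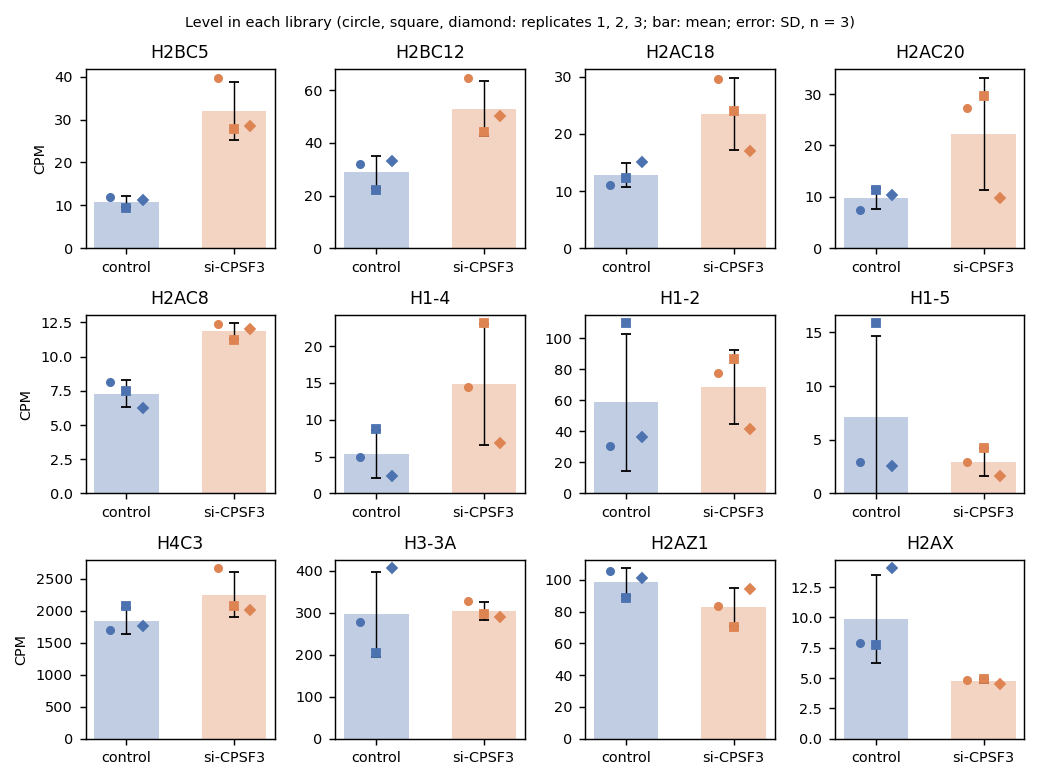
CPM (y axis, from 0) of 12 histone genes in each library, by group (x axis); symbols are single libraries, bars the mean and error bars the SD of 3 libraries. H2BC5, H2BC12, H2AC18 and H2AC8 have groups that do not overlap, with the libraries labelled si-CPSF3 above; H2AX has them below, and H1-2 and H1-5 are highest in control replicate 2.

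The linker histone genes H1-2, H1-3, H1-4 and H1-5 varied widely within each group, and none passed. H1-2 had 30.7, 109.6 and 36.2 CPM in the control libraries and 77.3, 86.7 and 41.3 CPM in the others (log2 fold change 0.21, adjusted p = 0.854). H1-5 had 2.94, 15.8 and 2.60 CPM against 2.95, 4.20 and 1.59 CPM (-1.31, adjusted p = 0.318). Control replicate 2 was the highest library of its group for H1-2, H1-4 and H1-5. Without it H1-2 had a log2 fold change of 1.03, H1-4 of 1.99 and H1-5 of 0.07. H1-4 had 4.97, 8.75 and 2.34 CPM in the control libraries and 14.5, 23.1 and 6.80 CPM in the others (1.43, SE 0.44, adjusted p = 0.105), and it passed at 1.79 without siCPSF3 replicate 3. H1-3 had 33.2, 27.7 and 10.7 CPM against 21.2, 16.1 and 7.71 CPM (-0.69, adjusted p = 0.405), with the third replicate lowest in both groups.

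No replication-dependent H3 gene had enough counts to be tested. Over all 12 of them the summed level was 1.81, 2.08 and 2.08 CPM in the control libraries and 6.71, 6.31 and 5.90 CPM in the libraries labelled si-CPSF3. That sum rests on 8 to 10 counts per control library and 25 to 27 per other library. H3C2 was at 0 in all control libraries and had 5, 9 and 5 counts in the others. Against a floor of 3 counts over the control group, it was at least 6.67-fold higher. H3C11 had 2, 0 and 2 counts against 3, 7 and 8. H3C4, with 13 of the 26 control counts of the family, went the other way, with 3, 6 and 4 counts in the control group against 4, 0 and 3. No other H3 gene had more than 6 counts in a library, H3C15 had none, and the floor covers counting error only. The annotated transcripts of H3C14 and H3C15 have the same length, stem-loop and flanking bases. How the counting split reads between such copies is uncertain, so single values are too.

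H4C3 dominated the counts of the class. Its deposited FPKM (reads scaled by gene length and depth) averaged 6763 ± 1627 in the control and 8913 ± 1953 in the other group (SD, n = 3), against 359 ± 171 and 372 ± 79.1 for H3-3A, the highest of the replacement genes. It held 84.7% to 90.5% of all replication-dependent counts. Its annotated transcript ends mostly in A and showed no stem-loop, and how mRNA was selected is not given. Whether the selection raised its level relative to the other genes was not tested. Control libraries stood at 1694, 2079 and 1763 CPM, against 2665, 2080 and 2021 CPM. The groups overlapped, and no difference passed (log2 fold change 0.29, SE 0.17, adjusted p = 0.469).

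Other H4 genes showed no change past the test. H4C12 had 32.3, 36.1 and 26.3 CPM against 32.2, 30.1 and 25.4 CPM (log2 fold change -0.11), and H4C15 had 11.8, 8.75 and 8.07 CPM against 11.6, 12.4 and 6.12 CPM (0.06). H4C5 was at 3.07 ± 0.13 CPM in the control libraries and 5.54 ± 1.03 CPM in the others (SD, n = 3), with groups that did not overlap (0.84, adjusted p = 0.276). The H4 genes listed here encode the same protein, and the span of H4C15 overlaps H2AC19, H2BC20P and H3C15, so single values are uncertain.

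Groups did not overlap, with the libraries labelled si-CPSF3 above, in 5 of the 14 tested replication-dependent genes (H2BC5, H2BC12, H2AC18, H2AC8 and H4C5), and in none below. Among all genes tested, 9.82% had such groups above and 11.4% below. Of the 10 replacement genes 1 was above (H2AJ) and 1 below (H2AX).

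H2AX, the variant phosphorylated at DNA breaks, had the largest negative value of the replacement genes. It had 7.91, 7.71 and 14.1 CPM in the control libraries and 4.83, 4.91 and 4.54 CPM in the others. All libraries labelled si-CPSF3 lay below all control libraries, with control replicate 3 the highest. The log2 fold change was -1.04 (SE 0.32), and it did not pass (adjusted p = 0.106). Its span overlaps DPAGT1, a glycosylation enzyme gene with 75 to 141 counts per library, and the reads of the 2 genes in the overlap cannot be told apart.

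The other replacement genes described here had log2 fold changes between -0.26 and 0.24, and none passed the test. H3-3A and H3-3B both encode H3.3, which is deposited outside replication. H3-3A had 278, 205 and 405 CPM in the control libraries and 328, 296 and 289 CPM in the others (log2 fold change 0.04), and H3-3B had 64.2, 66.9 and 61.7 CPM against 76.0, 65.9 and 85.3 CPM (0.24). For H3-3A the control libraries spread wider than the other group and enclosed it. H2AZ1 and H2AZ2 encode the 2 forms of H2A.Z, a variant found at promoters. H2AZ1 had 106, 88.8 and 101 CPM against 83.5, 70.3 and 94.1 CPM (-0.25, adjusted p = 0.488), and H2AZ2 had 52.0, 40.9 and 57.5 CPM against 66.9, 48.6 and 53.8 CPM (0.17).

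H2AJ, an H2A variant known to accumulate in senescent fibroblasts, had 31.6, 32.5 and 31.8 CPM against 38.7, 34.8 and 37.2 CPM (log2 fold change 0.21, adjusted p = 0.588). Its groups did not overlap, but the difference was small. MACROH2A1, a variant with a large non-histone domain, had 27.6, 24.2 and 28.9 CPM against 23.9, 25.7 and 27.9 CPM (-0.05). Its paralog MACROH2A2 was at 3.88 ± 0.46 and 3.24 ± 0.61 CPM (SD, n = 3; -0.26). The linker variant H1-10 was at 2.80 ± 0.77 CPM in the control libraries and 3.33 ± 1.14 CPM in the others (SD, n = 3; 0.24).

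**Figure D3:**
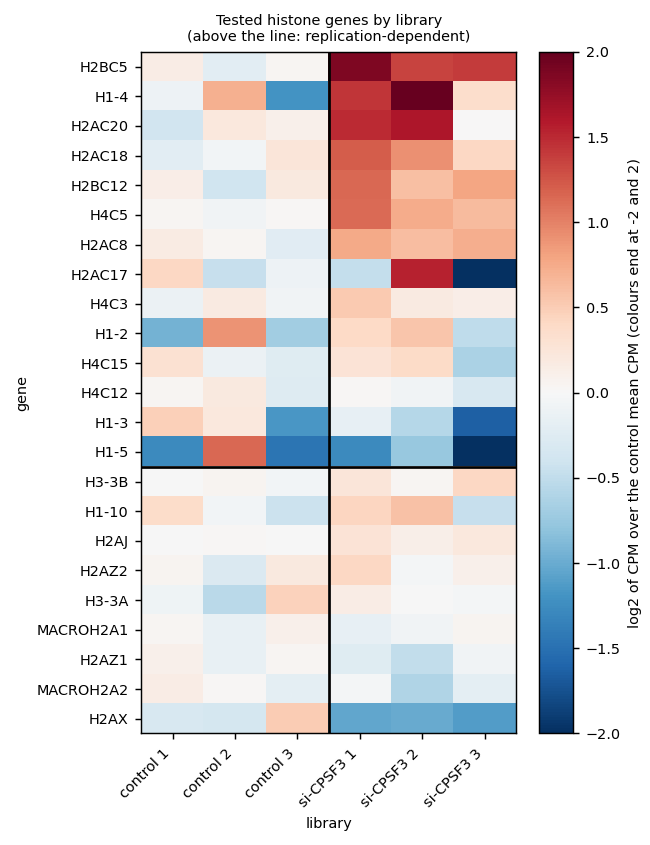
Log2 of each library's CPM over the gene's control mean (colour), for 23 tested histone genes (rows) in the 6 libraries (columns). H2BC5 is at 1.36 to 1.87 in the 3 libraries labelled si-CPSF3, H2AX at -1.12 to -1.01, and H1-5 at 1.15 in control replicate 2.

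The design of the gene set contrasts the 2 classes. Summed over all 61 replication-dependent genes, the level was 1910, 2381 and 1948 CPM in the control libraries and 3049, 2455 and 2264 CPM in the libraries labelled si-CPSF3. The mean was 2080 ± 262 CPM against 2589 ± 410 CPM (SD, n = 3), a log2 ratio of 0.32. One value of the higher group, that of siCPSF3 replicate 3, lay within the control range. Without H4C3, a choice made after seeing the data, the other 60 genes summed to 216, 302 and 185 CPM against 385, 375 and 244 CPM, a log2 ratio of 0.51.

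The 10 replacement genes summed to 577, 476 and 710.4 CPM in the control libraries and 634, 558 and 602 CPM in the others. Their means were 588 ± 118 and 598 ± 38.0 CPM (SD, n = 3), a log2 ratio of 0.02. The ratio of the replication-dependent to the replacement sum was 3.31, 5.004 and 2.74 for the controls against 4.81, 4.40 and 3.76. Control replicate 2 had the highest ratio of all 6 libraries, so the groups overlapped. Without H4C3 the ratios were 0.374, 0.635 and 0.260 against 0.608, 0.673 and 0.405, and again overlapped.

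By family, the 16 H2B genes summed to 51.5, 42.1 and 50.7 CPM in the control libraries and 120.3, 90.2 and 90.0 CPM in the others. Most of this sum came from H2BC5 and H2BC12, the only H2B genes tested. The other 14 H2B genes summed to 7.68, 10.6 and 6.25 CPM against 15.8, 18.2 and 11.1 CPM. The 15 H2A genes summed to 41.8, 45.9 and 41.1 CPM against 85.9, 97.2 and 48.3 CPM. In both families, as in the H3 sum above, every library labelled si-CPSF3 exceeded every control library, narrowly so for H2A in siCPSF3 replicate 3. The 6 H1 genes summed to 72.1, 162 and 51.8 CPM against 116, 130.1 and 57.4 CPM, and the 11 H4 genes other than H4C3 to 48.6, 50.2 and 39.0 CPM against 55.9, 51.4 and 42.2 CPM. For H1 and H4 the groups overlapped. These sums carry no test.

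**Figure D4:**
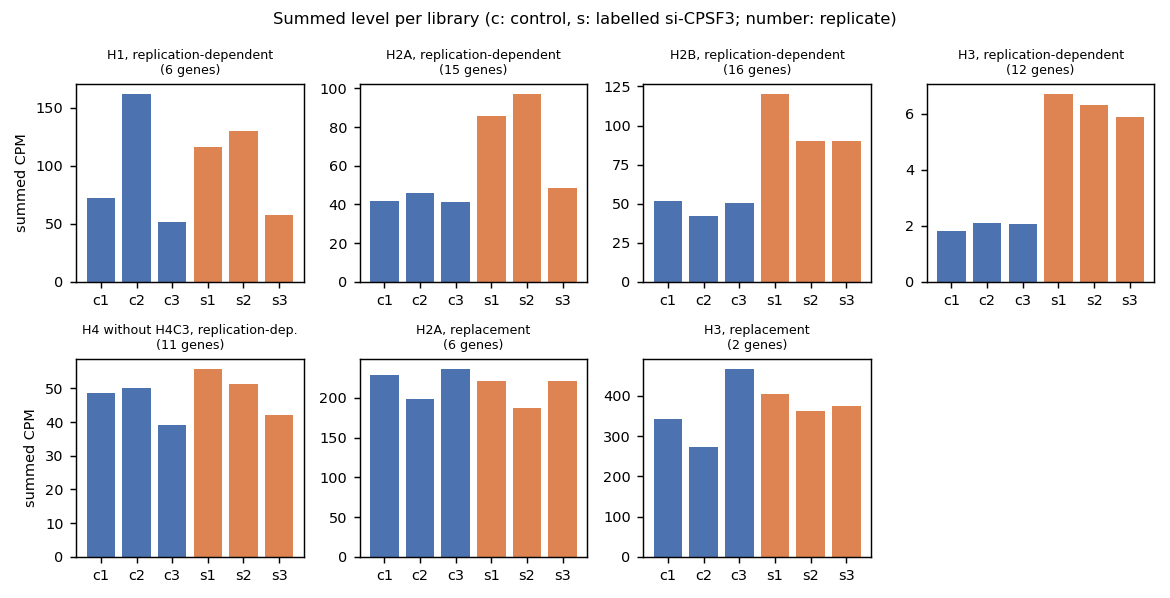
Summed CPM (y axis, from 0) per library (x axis) for replication-dependent H1, H2A, H2B, H3 and H4 (H4C3 left out) and replacement H2A and H3 genes. The replication-dependent H2A, H2B and H3 sums are higher in all 3 libraries labelled si-CPSF3 than in all 3 control libraries, while those of H1 and H4 overlap.

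The 47 genes that were not tested are all replication-dependent. They had 0 to 62 counts over the 6 libraries, with a median of 9, and 2 of them, H1-1 and H3C15, had none. By summed CPM 36 were higher and 9 lower in the libraries labelled si-CPSF3, against 51.3% and 48.7% of all 10126 genes that had a count but were not tested. Together they had 14.7, 23.8 and 11.2 CPM in the control libraries and 38.4, 35.5 and 30.8 CPM in the others, so these groups did not overlap. Most single genes are near the level of a few reads.

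With no filter on low counts, 69 histone genes were fitted and 6 were higher, against 1.09% of 21195 genes. These were H2BC5, H2BC12, H1-4, H2AC18, H2AC20 and H3C2. H1-5 was lower (log2 fold change -1.31, adjusted p = 0.0345), against 1.49% of genes, and this value rests on control replicate 2. H3C2 had an adjusted p of 0.0158 in that fit. Among the untested genes, those with groups that did not overlap were H2AC11, H2AC25, H2BC7, H2BC10, H2BC15, H3C1, H3C2, H3C11, H4C1 and H4C4, all with the libraries labelled si-CPSF3 above and none below. Among all 10126 genes that had a count but were not tested, 4.32% had such groups above and 3.42% below. H2BC15 had 8, 10 and 7 counts against 9, 14 and 14. For H2BC7, H2BC10, H3C1, H3C2 and H4C1 every control library was at 0.

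Genes of the histone mRNA life cycle were compared with the histone genes themselves. All 30 genes of the histone 3′ end processing and decay list were tested and none passed, with a median log2 fold change of -0.04. SLBP, the stem-loop binding protein, had 36, 41 and 24 control counts against 20, 29 and 34 (-0.21, adjusted p = 0.804). The 2 most abundant members, the Sm-ring genes SNRPF and SNRPB, had 0.06 and 0.11. Of the 31 genes of histone transcription and chaperoning, 20 were tested and none passed, with a median of -0.14. NPAT, the coactivator of histone gene transcription in S phase, was not tested. It had 8, 9 and 6 counts against 2, 5 and 2, so its groups did not overlap, at few reads. The most abundant tested members, the FACT subunit SSRP1 and the chaperone NAP1L1, had -0.12 and 0.04.

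Among 44 genes of S phase and DNA replication, 33 were tested, 4 were lower and none higher, with a median log2 fold change of -0.59. Over all genes tested 1.51% were lower and 0.723% higher, with a median of -0.01. The 4 are subunits of the MCM helicase, which unwinds DNA at replication forks. MCM4 fell from 40.7 ± 6.48 to 14.4 ± 5.33 CPM (SD, n = 3; log2 fold change -1.51, adjusted p = 0.00343), and MCM7 fell from 91.8 ± 9.65 to 50.4 ± 2.85 CPM (-0.86, adjusted p = 0.00653). Both passed whichever of the 6 libraries was left out. MCM2 (-1.14, adjusted p = 0.0273) and MCM5 (-1.20, adjusted p = 0.0401) passed in none of the 6 fits with a library left out. CLSPN, one of the 2 most abundant tested members, had 0.04. The H2B genes that rose and the MCM genes that fell come from the same libraries; whether the share of cells in S phase differed was not tested.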

How the data were processed

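RNA was sequenced in 3 libraries per group. Per the labels' protocols, total RNA was column-purified and a SMARTer mRNA kit was used. The mRNA selection, read alignment, counting, strand setting and annotation were not given in the sources used here. If selection used poly(A) tails, stem-loop mRNAs without a tail would be under-counted. Per the submitters' processing notes, hg38 was the build. The authors deposited raw counts per gene and FPKM values per gene. FPKM served to compare levels between genes and as an alternative.

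The count table had 25479 rows for 23382 names, as 1338 names stood on several rows, and the row with the highest mean count was used (2 histone genes are affected). Between replicates the chi-square per degree of freedom was 6.69 to 16.4, so each library counted once. The main test was edgeR 4.0.16 (R 4.3.3), quasi-likelihood, TMM factors, default filter, a group term alone, two-sided, Benjamini-Hochberg over 11069 genes, threshold 0.05. The filter can pass a gene through its higher group alone. CPM values are counts over the library size times its TMM factor, and errors (±) are SDs. Alternatives included DESeq2 1.42.0, limma 3.58.1 (voom, and trend on log2 of FPKM plus 1 or 0.1) and the distinct rows of a gene summed. The fit was tested on simulated data.

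The histone genes and the 3 related lists were chosen with earlier results of these data known. Every tested histone gene is named except 1 that is not reported here, with values per library for those past the threshold or at a mean of at least 5 CPM. From the related lists, the members past the threshold, SLBP, NPAT and the 2 most abundant tested genes are named. Class sums, medians and ratios carry no p-value.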

Additional observations from a re-analysis of the deposited data

How the results depend on the processing

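The 2 replication-dependent genes called higher became 1 with library totals in place of TMM and 6 with no filter. They became 1 with log2(FPKM + 0.1), which called H3C2 and not H2BC5. With log2(FPKM + 1) the number stayed at 2, but these were H2BC5 and a gene outside the main test, and H2BC12 was lost. Leaving out 1 library gave 1 to 4. The 4 came without siCPSF3 replicate 3 (H1-4, H2AC18, H2AC20 and H2BC5). The count of lower genes was 0 and became 1 with no filter. Library totals moved the median of all genes to -0.10. The replacement median ranged from -0.0416 (without control replicate 2) to 0.16 when 1 library was left out. The summed replacement log2 ratio ranged from -0.11 to 0.21 in the same way, and was -0.0566 with library totals and -0.0598 from FPKM. The replication-dependent median stayed between 0.42 and 0.78 and its summed ratio between 0.20 and 0.43 over the alternatives on all genes of the class. Of the genes that changed sign, H1-5 passed with no filter (-1.31) and the others missed the threshold under every alternative run. H2AC17 was -0.0754 with the replicate block, -0.40 with limma-voom, -0.34 and -0.40 with FPKM plus 1 and plus 0.1, and -1.16 to 0.88 when 1 library was left out. H4C15 was -0.0505 with library totals, -0.22 and -0.32 from FPKM, and -0.10 to 0.33 without 1 library. H3-3A was -0.0319 with library totals and -0.17 to 0.36 without 1 library. H2AZ2 was -0.0104 and -0.00894 from FPKM. Without 1 library H1-2 ranged from -0.10 to 1.03, H1-5 from -1.69 to 0.0674 and MACROH2A1 from -0.13 to 0.0221. The cause of these changes was not tested. Over all genes tested, the labels' replicate numbers showed little pairing of the samples (correlations of same-numbered deviations 0.0533, 0.0766 and -0.0493). H1-3, H1-4 and H1-5 each had the same order of replicates in both groups, and pairing within single genes was not tested. With the replicate block 147 genes were called in place of 247, among them H2BC5, H2BC12 and H1-4 (1.48). With no filter 547 were called, and with FPKM 31 and 18. At these counts, changes in the 47 genes not tested could not be resolved singly. H3C2 was called with no filter and with log2(FPKM + 0.1), but its counts were too low to enter the main test. Its control libraries were all at 0, so it entered the FPKM fit through the libraries labelled si-CPSF3 alone. The size of its change there depends on the value added to FPKM. Its call with no filter rests on 5, 9 and 5 counts against 0 in every control library.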
